A study of Mus musculus with 2 samples.

Results

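S-phase-like myogenic progenitors were the cells with the largest share of chosen DNA replication transcripts, in both single-cell libraries of the series. They were taken among Myog-low cells whose sum of mitotic transcripts stayed under a limit. They were chosen on measured values. Among the barcodes that passed the quality limits, those with Myog under 5 and with the sum of Mki67, Top2a, Cenpf, Ube2c, Tpx2, Birc5 and Cdk1 under 20 UMIs (unique molecular identifiers, each counting 1 captured transcript) per 10000 were taken as eligible, and the top 15% of each library by the summed share of Mcm3, Mcm5, Mcm6, Pcna, Rrm2 and Tyms were the S-phase-like cells. This gave 750 cells of 4999 eligible, 10834 kept and 12000 deposited barcodes for the F/R/C+CP clone, and 269 cells of 1788 eligible, 3962 kept and 5541 deposited barcodes for the F/R/C clone. Across the series they were 1019 of 14796 kept cells, a share of 6.89%. They were set against the lower 50% of the eligible cells by the same share, called low-score cells here, which were 2500 and 894 cells in the F/R/C+CP and F/R/C libraries.

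In the study, a synthetic mRNA for the muscle regulator MyoD was transfected repeatedly into mouse fibroblasts under small molecules, which gave transgene-free myogenic progenitors termed iMPCs, and 2 stable clones were sequenced with a 10x Genomics 3' kit. The F/R/C+CP-iMPCs had been made and kept in Forskolin (a cyclic AMP agonist), RepSox (a TGF-beta receptor inhibitor), a GSK3 inhibitor and CP690550, a Janus kinase inhibitor. The F/R/C-iMPCs had received the first 3 compounds without CP690550. Both carried the Tg:Pax7-nGFP/C57BL6;DBA2 genotype, in which a nuclear GFP reports Pax7 expression, both had received the MyoD-mRNA by 4x transfection in iMPC medium with B18R, a protein that blocks interferon, and in both the myofibers had been filtered out before capture. Each group was 1 clone in 1 library, so that the effects of CP690550, of the clone and of the library cannot be told apart, and no test between the groups was possible. All intervals given are 95% intervals that cover counting error only.

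In S phase a cell copies its genome once. In late G1, E2F transcription factors are released and raise the genes for origin licensing, DNA polymerases, nucleotide synthesis and cyclin E, the MCM helicase loaded on origins is switched on by firing factors, and PCNA then clamps polymerases to the template while new histones are made to package the copies. Muscle progenitors that express Pax7 and Myod1 pass through this phase as they expand, and leave the cycle before the sarcomere genes rise.

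The promoters of the 4 genes that mark the cells show how E2F-type letters sit upstream of some replication genes and not of others. The sequences are the 160 bases before the start in RefSeq (build GRCm38.p6), read on the gene's strand from 5' to 3', with matches to TTTCCCGC, TTTCGCGC, TTTGCCGC or TTTGGCGC on either strand in capitals. Mcm5 and Mcm6 encode helicase subunits, Pcna the sliding clamp, and Tyms the enzyme that makes thymidylate. The stretches are chr8:75109349-75109508 on the plus strand for Mcm5, chr1:128359706-128359865 on the minus strand for Mcm6, chr2:132253181-132253340 on the minus strand for Pcna and chr5:30073626-30073785 on the minus strand for Tyms.
Mcm5: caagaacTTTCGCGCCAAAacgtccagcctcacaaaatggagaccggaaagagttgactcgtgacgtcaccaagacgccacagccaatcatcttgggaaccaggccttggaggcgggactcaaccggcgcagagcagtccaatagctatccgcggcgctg
Mcm6: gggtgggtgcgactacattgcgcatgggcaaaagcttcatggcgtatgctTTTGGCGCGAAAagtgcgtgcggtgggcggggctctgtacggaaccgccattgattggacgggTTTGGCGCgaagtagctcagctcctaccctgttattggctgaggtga
Pcna: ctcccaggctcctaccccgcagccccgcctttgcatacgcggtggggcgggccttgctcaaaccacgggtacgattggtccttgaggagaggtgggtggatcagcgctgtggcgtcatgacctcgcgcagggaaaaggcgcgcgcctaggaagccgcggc
Tyms: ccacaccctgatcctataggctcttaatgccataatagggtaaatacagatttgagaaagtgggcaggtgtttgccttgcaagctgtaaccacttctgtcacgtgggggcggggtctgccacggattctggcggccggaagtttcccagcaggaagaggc
Mcm5 held 2 overlapping matches that began 153 and 149 bases before the start, and Mcm6 held matches that began 110, 106 and 47 bases before it, the first pair overlapping. No such letters occurred in the windows shown for Pcna and Tyms. Over the 250 bases before the start, a match was present in 583 of 27025 mouse genes with a promoter entry (2.16%), in 2 of 6 rule genes, in 10 of 45 matched replication genes outside the rule (22.2%), in 6 of 13 matched G1/S regulators (46.2%) and in 5 of 12 genes that copy chromatin marks (41.7%). In further lists it was present in 3 of 18 matched checkpoint and repair genes (16.7%), in 8 of 57 histone genes, in 1 of 11 histone supply genes (9.09%), in 1 of 17 nucleotide supply genes (5.88%) and in 1 of 29 mitosis genes outside the rule (3.45%). The CCAAT box, another short promoter sequence, was present on either strand in 37.5% of all genes. It was present in 47 of 57 matched histone genes (82.5%), in 21 of 29 matched mitosis genes outside the rule (72.4%) and in 5 of 6 rule genes. Chromatin copying (9 of 12 genes, 75%) and histone supply (8 of 11, 72.7%) had it about as often. Replication genes outside the rule (48.9%), sarcomere genes (38.1%) and satellite cell genes (13.3%) had it less often. A match is a description of letters, and binding was not measured.

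The libraries differed in depth, which bears on every comparison between them. The F/R/C+CP matrix held 12000 barcodes of at least 12097 UMIs and 313078984 UMIs in all, and the F/R/C matrix 5541 barcodes of at least 500 UMIs and 36999292 UMIs in all. The S-phase-like cells had a median of 20717.5 UMIs (12107 to 50950) and 4638 genes among F/R/C+CP cells, and of 6909 UMIs (506 to 11889) and 2622 genes among F/R/C cells, so that their UMI counts did not overlap between the libraries. Low-score cells were shallower in both, with medians of 17158 and 5417.5 UMIs. The mitochondrial share was close in S-phase-like and low-score cells, with medians of 5.50% and 5.76% among F/R/C+CP cells and of 7.33% and 7.75% among F/R/C cells. Of all barcodes, 18 occurred in both libraries, and none of the S-phase-like ones did. No S-phase-like cell was called a doublet by Scrublet, and 19 cells (2.53%) and 12 cells (4.46%) lay among the highest doublet scores in the F/R/C+CP and F/R/C libraries.

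The score is a range and not a class with an edge. The lowest S-phase-like cell had 9.985 rule-gene UMIs per 10000 and the next cell below it 9.984 among F/R/C+CP cells, and these values were 12.68 and 12.63 among F/R/C cells. Within 1 UMI per 10000 of the limit lay 486 F/R/C+CP cells, 222 of them S-phase-like, and 96 F/R/C cells, 39 of them S-phase-like. In UMIs, the median S-phase-like cell held 25 rule-gene UMIs against 3 in low-score cells of clone F/R/C+CP, and 11 against 1 among F/R/C cells. No rule-gene UMI was found in 360 eligible F/R/C+CP cells (7.20%) and in 426 eligible F/R/C cells (23.8%). Since a fixed 15% was taken, the equal shares of S-phase-like cells in both libraries carry no information. With every cell thinned to 2000 UMIs, 28.3% (27.0 to 29.5%) of the eligible F/R/C+CP cells and 34.2% (31.9 to 36.6%) of the eligible F/R/C cells held 2 or more rule-gene UMIs, with 0 and 190 shallower cells left out. The unthinned shares of cells at 10 per 10000 or more were 14.98% and 24.78%. At this depth 72.9% of the S-phase-like F/R/C+CP cells and 86.0% of the S-phase-like F/R/C cells still held 2 or more, against 6.32% and 2.95% of the low-score cells.

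**Figure D1:**
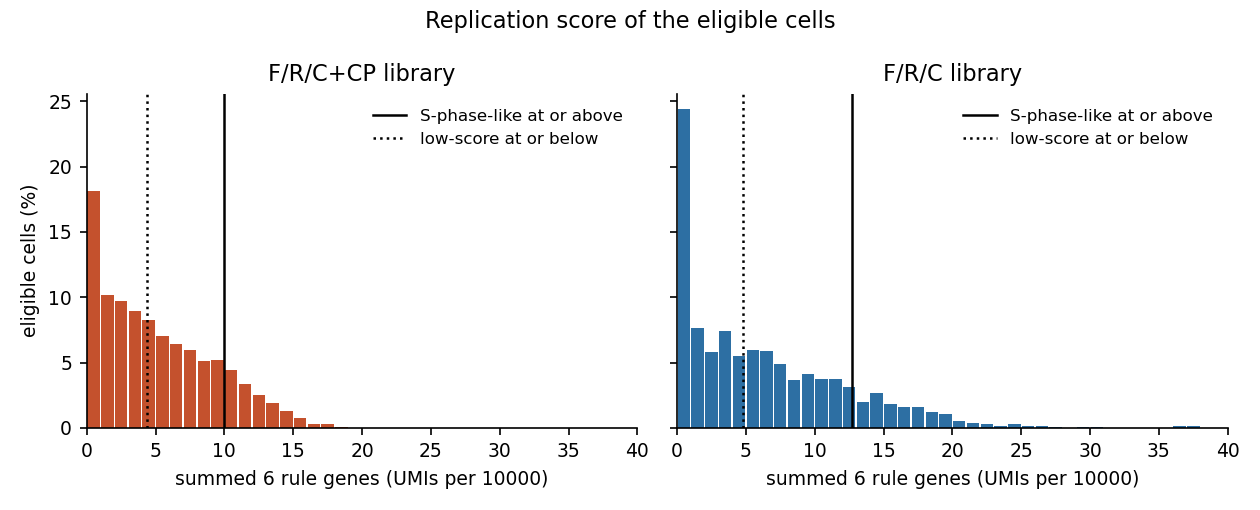
Share of eligible cells (%, y axis) at each summed share of Mcm3, Mcm5, Mcm6, Pcna, Rrm2 and Tyms (UMIs per 10000, x axis), for the F/R/C+CP library on the left and the F/R/C library on the right; the solid line marks the limit of the S-phase-like cells and the dotted line that of the low-score cells. Neither distribution has a gap at the limit of 9.98 or 12.7 per 10000, and the highest cell reached 20.1 among F/R/C+CP cells and 37.4 among F/R/C cells.

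The 6 rule genes differ between the cell groups because they chose them, and their values describe how each gene took part. Pcna had 244 counts per 1000000 UMIs (CPM, from counts summed over the cells of a group) in the S-phase-like cells against 32.3 CPM in the low-score cells of clone F/R/C+CP, and 415 against 42.2 CPM among F/R/C cells. Mcm5 had 97.2 CPM in S-phase-like against 11.0 CPM in low-score F/R/C+CP cells and 117 against 13.3 CPM in such F/R/C cells. Mcm6 had 281 CPM in S-phase-like against 47.0 CPM in low-score F/R/C+CP cells and 356 against 48.9 CPM in such F/R/C cells. All were high in the selected cells, as the rule requires. Tyms had 151 CPM in S-phase-like against 21.3 CPM in low-score F/R/C+CP cells and 246 against 27.9 CPM in such F/R/C cells. In the deeper F/R/C+CP library, from 84.1% (Mcm5) to 99.9% (Mcm3) of the S-phase-like cells held a UMI of each rule gene without thinning, and among F/R/C cells from 50.6% (Mcm5) to 89.2% (Pcna). In the F/R/C library many cells were thus chosen on a part of the 6 genes.

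Replication genes that the rule did not use were higher in the S-phase-like cells of both libraries. Of these 57 genes, 49 of 57 with at least 50 UMIs were 2-fold higher or more among F/R/C+CP cells, where 5.98% of all 13291 features reached that size, and 45 of 54 among F/R/C cells, where 4.86% of all 9169 features did. In both libraries 43 of 54 genes were 2-fold higher. The median log2 difference was 1.95 and 1.65 over these genes, and -0.01 and 0.01 over all features. Their summed level was 4346.8 CPM in the S-phase-like cells against 1346.6 CPM in the low-score cells of clone F/R/C+CP (log2 difference 1.69, 1.68 to 1.71), and 4383.7 against 1581.2 CPM among F/R/C cells (1.47, 1.43 to 1.52). The genes share cells and cell cycle phase with the rule genes, so that these counts describe the selected cells and are not an independent test of the label. With every cell thinned to 2000 UMIs before the choice, the difference was 0.80 and 0.89, with 20 genes 2-fold higher in each library. Ties then made 1413 F/R/C+CP and 295 F/R/C cells members, so that the groups differed as well as the depth. The share of all features at that depth is not given here.

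Origin licensing and firing genes were among them. Cdc6, which loads the MCM helicase, had 54.4 CPM in the S-phase-like cells against 3.27 CPM in the low-score cells of clone F/R/C+CP (log2 difference 4.06, 3.82 to 4.30) and 45.0 against 3.54 CPM among F/R/C cells (3.67, 2.90 to 4.52). Of 13 licensing genes, 9 were 2-fold higher in each library, 8 of them in both. Mcm2 and Mcm4, helicase subunits that were not part of the rule, differed by 2.29 and 2.29 among F/R/C+CP cells and by 2.34 and 1.79 among F/R/C cells on the log2 scale. Gmnn, which blocks relicensing once S phase has begun, had 128 CPM in S-phase-like against 21.2 CPM in low-score F/R/C+CP cells and 104 against 18.9 CPM in such F/R/C cells. The origin recognition subunits Orc3 and Orc4 hardly differed, with log2 differences of 0.20 and 0.23 among F/R/C+CP cells and of 0.05 and 0.07 among F/R/C cells, against 1.949 and 1.503 for Orc1, the subunit that is made anew in each cycle. All 14 firing genes among F/R/C+CP cells and all 11 with enough UMIs among F/R/C cells were 2-fold higher. Mcm10, which joins the helicase to the polymerases, differed by 3.34 (F/R/C+CP) and 3.14 (F/R/C), and Ticrr, which brings firing factors to the origin, by 2.96 (F/R/C+CP) and 2.73 (F/R/C).

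The polymerases and the machinery of the fork followed, with 1 member moving the other way. Of 12 polymerase and primase genes, 9 and 10 were 2-fold higher in the F/R/C+CP and F/R/C libraries. Pola1, which starts each new strand, had 229 CPM in S-phase-like against 48.9 CPM in low-score F/R/C+CP cells and 288 against 74.3 CPM in such F/R/C cells. Prim1 and Prim2, the primase subunits, differed by 2.33 and 2.57 among F/R/C+CP cells and by 1.97 and 2.51 among F/R/C cells. Pold4, the smallest subunit of polymerase delta, was lower, at 24.1 against 73.9 CPM among F/R/C+CP cells (log2 difference -1.62, -1.77 to -1.47) and at 69.0 against 117 CPM among F/R/C cells (-0.76, -1.06 to -0.48). Among 18 genes for the clamp loader and the fork, 17 and 15 were 2-fold higher. Pclaf, a small PCNA partner, had 399 CPM in S-phase-like against 54.5 CPM in low-score F/R/C+CP cells and 302 against 64.5 CPM in such F/R/C cells. Lig1, which seals lagging strand fragments, had 179 CPM in S-phase-like against 27.5 CPM in low-score F/R/C+CP cells and 99.8 against 22.3 CPM in such F/R/C cells. All of these work at the moving fork. Dscc1, a subunit of an alternative clamp loader, had 28.0 CPM in S-phase-like against 2.32 CPM in low-score F/R/C+CP cells and 30.2 against 5.20 CPM in such F/R/C cells.

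Genes that supply and package the new DNA were higher to different degrees. Nucleotide supply had 12 of 19 genes 2-fold higher among F/R/C+CP cells and 9 of 19 among F/R/C cells, with medians of 1.16 (F/R/C+CP) and 0.995 (F/R/C). Tk1, the thymidine salvage kinase, differed by 2.73 (F/R/C+CP) and 2.42 (F/R/C). Of the histone supply genes, 10 of 12 and 10 of 11 were 2-fold higher, with Chaf1b, a subunit of the assembly factor that works behind PCNA, at 81.6 CPM in S-phase-like against 8.46 CPM in low-score F/R/C+CP cells and 82.1 against 8.32 CPM in such F/R/C cells. Slbp, which binds histone mRNA, had 153 CPM in S-phase-like against 40.9 CPM in low-score F/R/C+CP cells and 148 against 50.6 CPM in such F/R/C cells. Uhrf1 and Dnmt1, which carry DNA methylation over to the new strand, differed by 2.96 and 2.29 among F/R/C+CP cells and by 2.41 and 1.53 among F/R/C cells, within a list of chromatin copying genes of which 7 of 12 and 6 of 12 were 2-fold higher. Cohesion genes mostly fell short of this size. Only Esco2, which locks cohesin on sister strands, and Cdca5, which protects cohesin, were 2-fold higher in both libraries among 12 genes. Esco2 had 46.1 CPM in S-phase-like against 3.91 CPM in low-score F/R/C+CP cells and 32.5 against 3.74 CPM in such F/R/C cells.

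Checkpoint and repair genes were high in the same cells. Of 25 genes, 23 were 2-fold higher among F/R/C+CP cells, and 19 of 21 with enough UMIs among F/R/C cells, with medians of 2.26 (F/R/C+CP) and 2.06 (F/R/C). Clspn, an adaptor that passes on replication stress signals, had 144 CPM in S-phase-like against 11.6 CPM in low-score F/R/C+CP cells and 137 against 13.7 CPM in such F/R/C cells. Brca1, a repair factor at broken forks, had 67.5 CPM in S-phase-like against 5.56 CPM in low-score F/R/C+CP cells and 77.5 against 8.53 CPM in such F/R/C cells. The nuclease gene Exo1 had 98.9 CPM in S-phase-like against 8.08 CPM in low-score F/R/C+CP cells and 65.0 against 9.36 CPM in such F/R/C cells. p53 targets did not rise with them as a sum. Of 15 among F/R/C+CP cells, 5 were 2-fold lower and 1 was 2-fold higher. Of 13 with enough UMIs among F/R/C cells, 2 were 2-fold lower and 0 higher. Over all features, 13.5% and 6.03% were 2-fold lower and 5.98% and 4.86% higher. Pmaip1 and Trp53inp1, both linked to cell death, were 2-fold lower in both libraries. Over the alternatives run, Pmaip1 shrank to as little as -0.50 (F/R/C+CP) and -0.54 (F/R/C), and Trp53inp1 to -0.76 and -0.72. The summed p53 list differed by -0.82 (F/R/C+CP) and -0.39 (F/R/C) on the log2 scale. It differed by -0.39 (F/R/C+CP) and -0.29 (F/R/C) when cells with 200 or more sarcomere UMIs per 10000 were left out. Here and below, the sarcomere UMIs of a cell are the sum of Acta1, Tnnc2, Tnnt3, Mylpf, Myh1, Myh3 and Ckm.

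The G1/S regulators time entry into S phase. All 15 genes among F/R/C+CP cells and 13 of 15 among F/R/C cells were 2-fold higher. Ccne2, a cyclin E gene that drives entry into S phase, had 178 CPM in the S-phase-like cells against 9.84 CPM in the low-score cells of clone F/R/C+CP (log2 difference 4.18, 4.04 to 4.31), and 50.7 against 3.12 CPM among F/R/C cells (4.02, 3.23 to 4.92). After thinning to 2000 UMIs, Ccne2 was found in 29.5% of the S-phase-like cells against 2.12% of the low-score cells of clone F/R/C+CP, and in 10.3% against 0.536% among F/R/C cells, with 26 and 147 shallower F/R/C cells left out. As background, 1.45% of 484 F/R/C+CP cells with 500 or more sarcomere UMIs per 10000 held a Ccne2 UMI, and 0 of 37 such F/R/C cells, which allows a share of up to 9.49% by the exact interval. Unthinned, the shares were 93.5% against 15.6% with 19.0% in the sarcomere-rich cells of clone F/R/C+CP (medians of 20717.5, 17158 and 42882.5 UMIs), and 27.1% against 1.68% with 0 in the sarcomere-rich cells of clone F/R/C (medians of 6909, 5417.5 and 4712 UMIs). Its sister gene Ccne1 had 307 CPM in S-phase-like against 97.6 CPM in low-score F/R/C+CP cells and 298 against 77.2 CPM in such F/R/C cells. E2f7, a repressor of E2F targets, differed by 4.12 (F/R/C+CP) and 3.69 (F/R/C), and Fbxo5, which holds back the anaphase-promoting complex, by 3.92 (F/R/C+CP) and 3.80 (F/R/C). E2f1 itself differed less, by 1.90 (F/R/C+CP) and 1.84 (F/R/C).

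**Figure D2:**
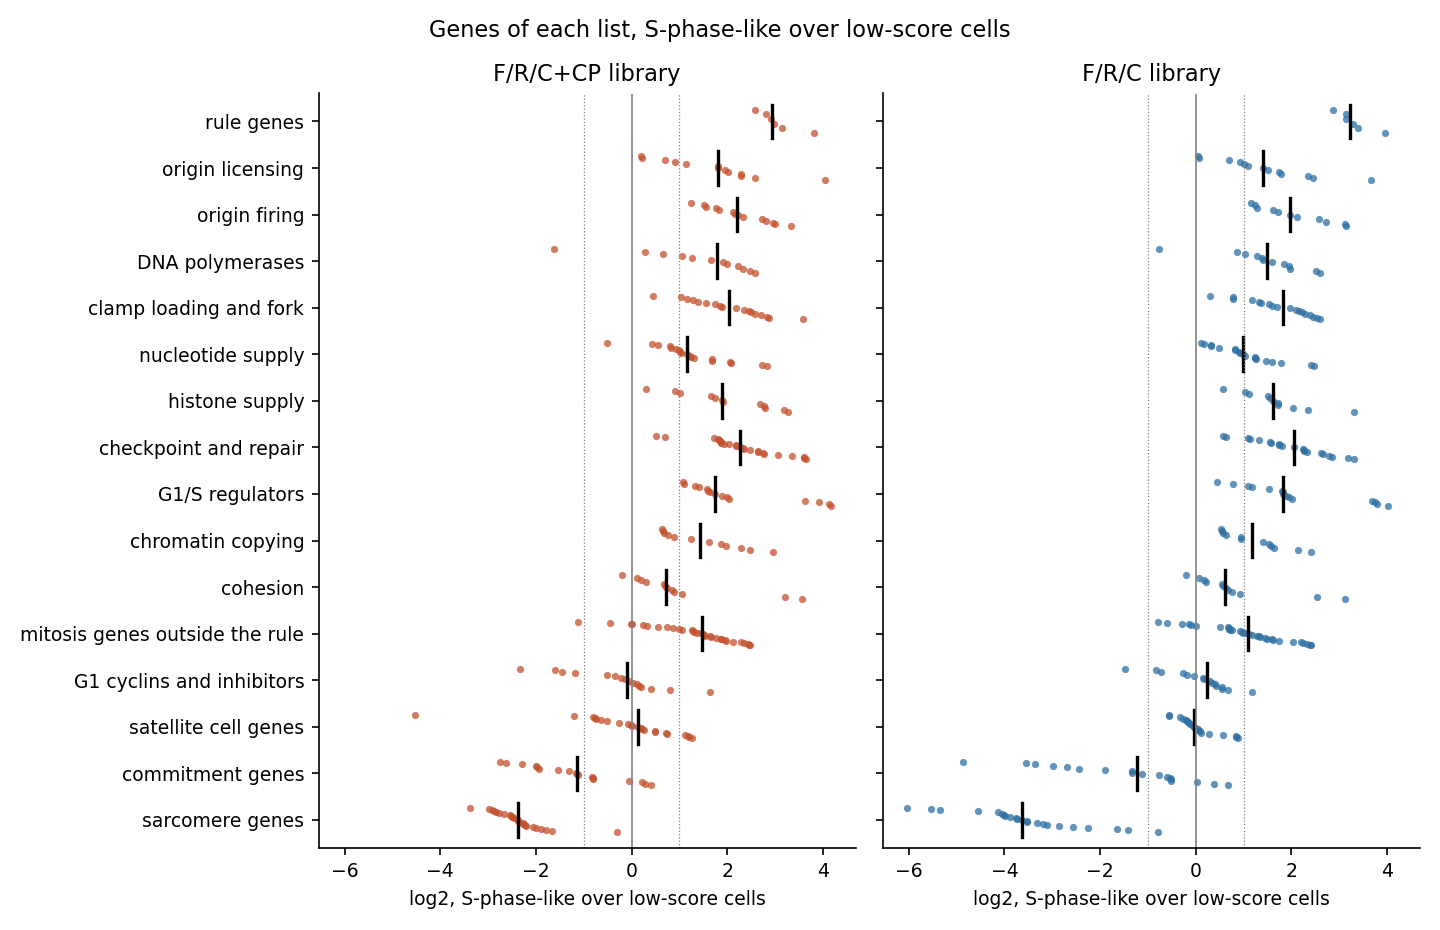
Log2 difference of each gene, S-phase-like over low-score cells (x axis), by gene list (y axis), with F/R/C+CP cells on the left and F/R/C cells on the right; each point is a gene with at least 50 UMIs, black bars are list medians, and dotted lines mark a 2-fold difference. The lists for licensing, firing, polymerases and the clamp and fork lie to the right of 0 with medians from 1.79 to 2.20 (F/R/C+CP) and from 1.41 to 1.98 (F/R/C), Pold4 lies to the left, and the sarcomere genes have medians of -2.38 (F/R/C+CP) and -3.64 (F/R/C).

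Low Myog and a low mitotic sum were part of the rule, and the mitotic genes outside it were read next. Their sum was 1358.8 CPM in the S-phase-like cells against 588.2 CPM in the low-score cells of clone F/R/C+CP and 1440.7 against 734.9 CPM among F/R/C cells, while the Myog-low cells above the mitotic limit had 4419.2 and 4914.7 CPM for the mitosis genes outside the rule. Of 32 genes, 22 and 17 were 2-fold higher than in low-score cells. Among them were the kinetochore gene Ndc80 (log2 differences 2.47 for F/R/C+CP and 2.41 for F/R/C) and Sgo1, which protects sister cohesion (2.36 for F/R/C+CP and 2.39 for F/R/C). Ccnb1, the cyclin that starts mitosis, had 26.5 CPM in S-phase-like against 22.5 CPM in low-score F/R/C+CP cells and 19.95 against 21.2 CPM in such F/R/C cells. Its log2 differences were 0.23 (0.07 to 0.39) for F/R/C+CP and -0.09 (-0.69 to 0.48) for F/R/C, and the cells above the limit had 172 CPM (F/R/C+CP) and 174 CPM (F/R/C). Of the rule's own mitotic genes, Top2a differed by 2.67 (F/R/C+CP) and 2.65 (F/R/C), while Cenpf differed by 0.02 (F/R/C+CP) and -0.11 (F/R/C) and Ube2c by -0.09 (F/R/C+CP) and -0.87 (F/R/C).

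Across the eligible cells the levels changed in steps with the score and without a break. Replication genes outside the rule summed to 1346.6, 2690.8, 3675.1 and 4346.8 CPM in the lower 50%, the next 20%, the next 15% and the top 15% of the F/R/C+CP cells, and to 1581.2, 2770.5, 3706.3 and 4383.7 CPM in the F/R/C cells. Ccne2 had 9.84, 48.8, 114 and 178 CPM in the same F/R/C+CP groups and 3.12, 15.8, 32.4 and 50.7 CPM in the F/R/C groups. At 27.9 and 11.6 CPM, it was below the S-phase-like and above the low-score level in the Myog-low cells above the mitotic limit. Those cells still had 2964.8 and 3248.0 CPM of the replication genes outside the rule, so that replication transcripts were not confined to the S-phase-like cells. The sum of the histone genes was also lower in the S-phase-like cells than above the mitotic limit, at 3332.3 and 3843.1 CPM among F/R/C+CP cells and 1134.6 and 1639.3 CPM among F/R/C cells.

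**Figure D3:**
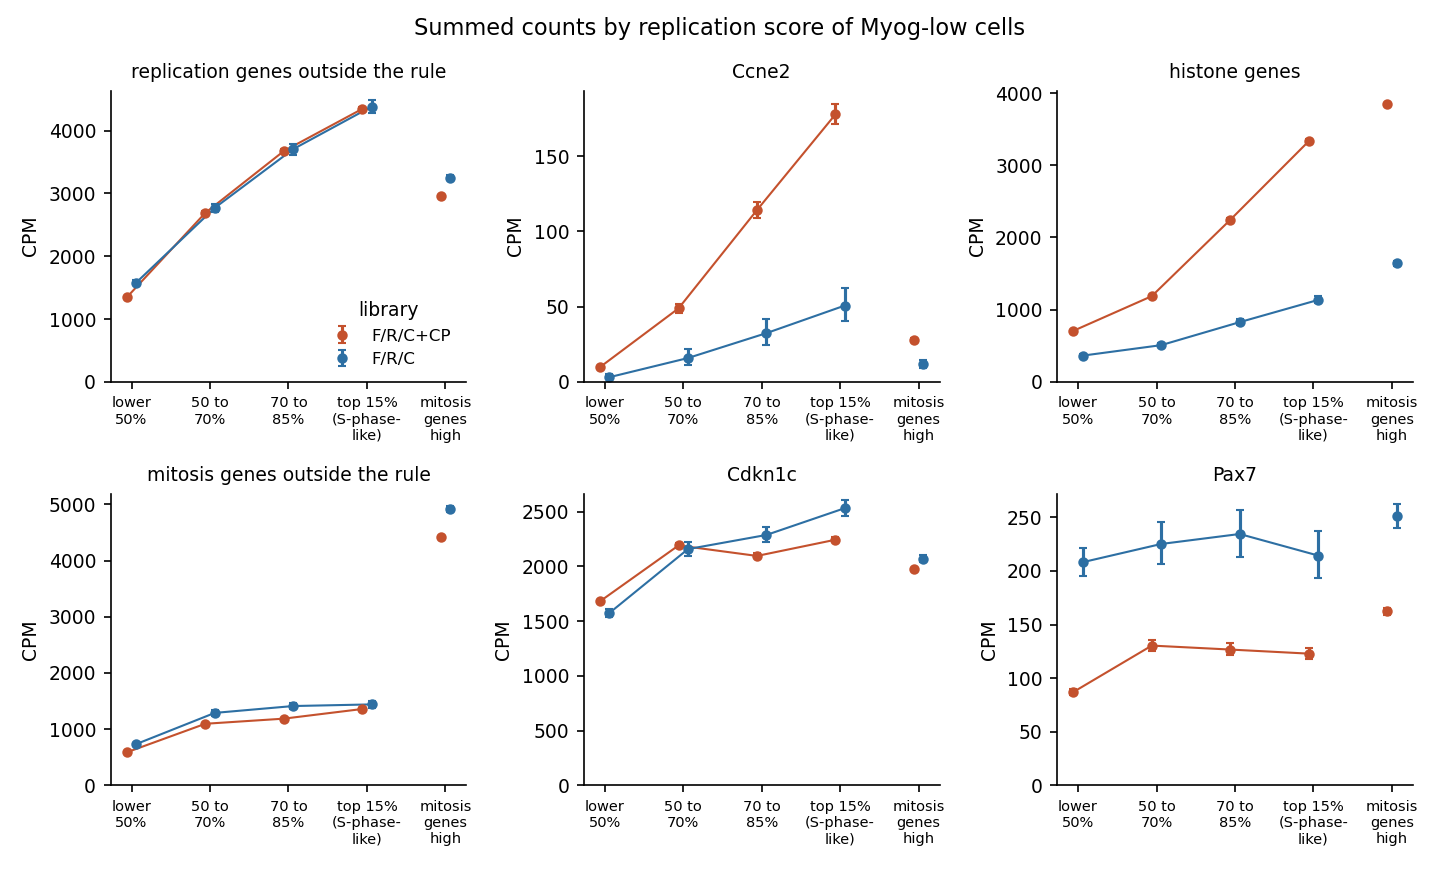
Level in CPM (y axis, from summed counts, with 95% counting intervals) of the summed replication genes outside the rule, histone genes and mitosis genes outside the rule and of Ccne2, Cdkn1c and Pax7, across the eligible cells by replication score and, unconnected at the right, in Myog-low cells above the mitotic limit (x axis), for both libraries. Ccne2 peaked in the S-phase-like cells at 178 and 50.7 CPM, the mitosis genes outside the rule reached 4419.2 and 4914.7 CPM only above the mitotic limit, and Pax7 stayed between 123 and 130 CPM in the upper 3 score groups of clone F/R/C+CP.

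Replication-dependent histone genes encode the bulk histones made in S phase, and most of their mRNAs end without a poly(A) tail, which the 3' kit captures. They are near-identical copies, so the split of UMIs between single genes is uncertain and the sum is given first. Histone genes summed to 3332.3 CPM in the S-phase-like cells against 706.4 CPM in the low-score cells of clone F/R/C+CP (log2 difference 2.24, 2.22 to 2.26) and to 1134.6 against 363.4 CPM among F/R/C cells (1.64, 1.55 to 1.74). Of 63 genes, 50 and 10 had at least 50 UMIs, and 45 of 50 and 7 of 10 were 2-fold higher. H1f5, a linker histone, had 1083.3 CPM in S-phase-like against 63.3 CPM in low-score F/R/C+CP cells and 464 against 65.9 CPM in such F/R/C cells. H2ac24, a core histone H2A gene, had 479 CPM in S-phase-like against 39.5 CPM in low-score F/R/C+CP cells and 223 against 26.2 CPM in such F/R/C cells. H2bc4 went the other way, at 70.8 CPM in S-phase-like against 309 CPM in low-score F/R/C+CP cells and 12.5 against 104 CPM in such F/R/C cells.

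The S-phase-like cells were next read by their mitotic sum, a value that the rule had kept below its limit. Each library's S-phase-like cells were split at the median of that sum, at 8.02 and 5.87 UMIs per 10000, into an upper part of 375 and 135 cells and a lower part of 375 and 134 cells. The rule genes as a sum differed little between these parts, by 0.03 (-0.01 to 0.07) on the log2 scale among F/R/C+CP cells and by 0.07 among F/R/C cells. Histone genes had 4962.7 CPM in the upper part against 1532.9 CPM in the lower part of the F/R/C+CP cells, and 1754.9 against 416.9 CPM in the F/R/C cells. Among the rule genes, Rrm2 was higher in the upper part (0.85 and 1.45) and Mcm3 lower (-0.24 and -0.31) in both libraries. The cells were chosen on the rule-gene sum, so at a similar sum a rise in some of these genes goes with a fall in others. These values describe the split and are not independent of the choice. Esco2 had 72.2 CPM in the upper against 17.3 CPM in the lower part of the F/R/C+CP cells, and 55.3 CPM in the upper against 6.15 CPM in the lower part of the F/R/C cells. Pclaf differed by 0.85 (F/R/C+CP) and 1.24 (F/R/C) and Tk1 by 0.61 (F/R/C+CP) and 1.06 (F/R/C). Ccne2 did not differ beyond its counting interval in either library (0.05, -0.05 to 0.16, and 0.02, -0.61 to 0.66). Cdc6 was lower in the upper part of the F/R/C+CP cells (-0.75, -0.95 to -0.55), and in the F/R/C cells its interval spanned 0 (0.65, -0.04 to 1.38). Cells of the upper part were also deeper, with medians of 21886 against 19373 UMIs in the lower part (F/R/C+CP) and 7293 against 6605.5 UMIs in the lower part (F/R/C), and the part of depth in these values was not tested.

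**Figure D4:**
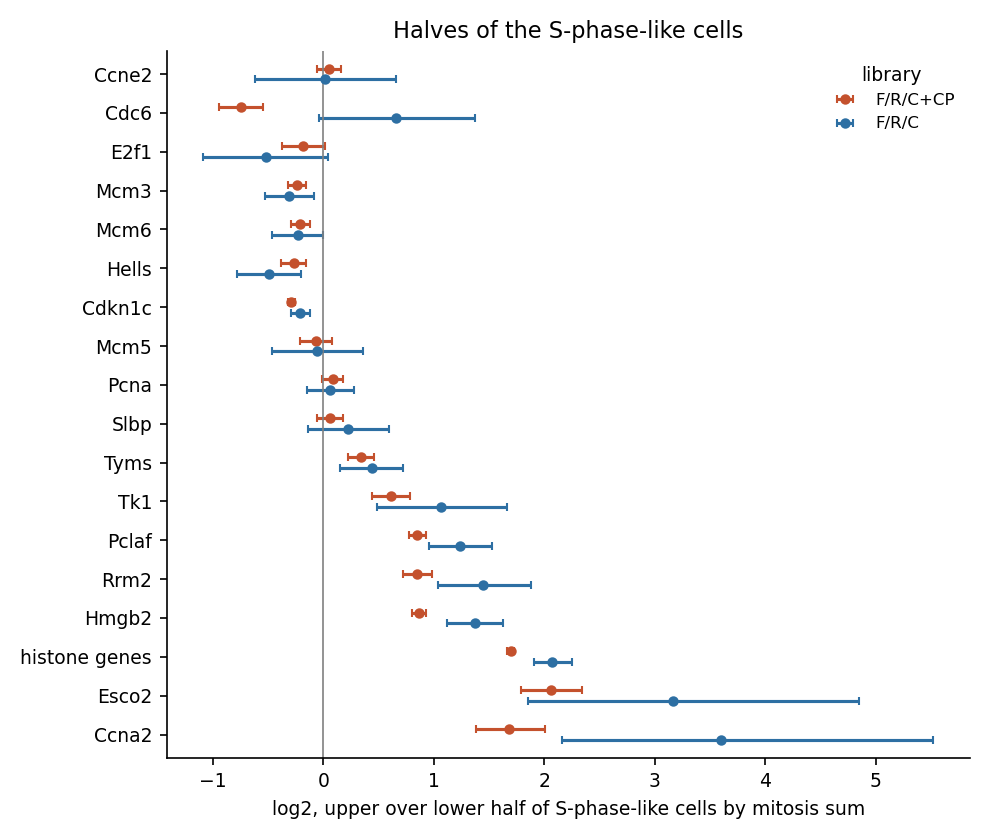
Log2 difference with its 95% counting interval (x axis) of selected genes and of the histone sum (y axis), S-phase-like cells with an upper over those with a lower mitotic sum, in both libraries. Mcm3, Mcm6, Hells and Cdkn1c lie left of 0 and Tyms, Tk1, Pclaf, Rrm2, Hmgb2, the histone genes, Esco2 and Ccna2 right of 0 in both libraries, while Cdc6 lies on opposite sides. Mcm3, Mcm5, Mcm6, Pcna, Tyms and Rrm2 are rule genes, whose values are tied to the choice of cells.

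Progenitor and early myogenic genes were read as a check of the myogenic part of the name. Of Pax7, Myod1, Myf5 and Des, only Pax7 was found in a larger share of them than of sarcomere-rich cells beyond the counting intervals. Pax7, the defining transcription factor of muscle stem cells, had 123 CPM in the S-phase-like cells against 87.1 CPM in the low-score cells of clone F/R/C+CP (log2 difference 0.50, 0.42 to 0.57) and 214 against 208 CPM among F/R/C cells (0.04, -0.13 to 0.21). After thinning, 21.1% of the S-phase-like F/R/C+CP cells held a Pax7 UMI against 17.0% of the low-score cells, and 31.7% against 33.1% among F/R/C cells, while sarcomere-rich cells, in which Pax7 should be off, had 1.03% and 0 of 37 cells. Unthinned, Pax7 was found in 82.3% against 63.7% with 11.6% in the sarcomere-rich F/R/C+CP cells, and in 63.2% against 50.2% with 0 in the sarcomere-rich F/R/C cells. Myod1, which drives commitment, had 89.9 CPM in S-phase-like against 74.0 CPM in low-score F/R/C+CP cells and 49.0 against 47.8 CPM in such F/R/C cells. Myf5, its close relative, had 2.80 CPM in S-phase-like against 4.90 CPM in low-score F/R/C+CP cells and 88.9 against 59.7 CPM in such F/R/C cells. Desmin (Des), the muscle intermediate filament, had 693 CPM in S-phase-like against 1593.3 CPM in low-score F/R/C+CP cells and 724 against 1068.6 CPM in such F/R/C cells (log2 differences -1.20 for F/R/C+CP and -0.56 for F/R/C). Without cells of 200 or more sarcomere UMIs per 10000, Des differed by -0.18 (F/R/C+CP) and by 0.05 (F/R/C, -0.05 to 0.14). Whether the transfected MyoD-mRNA or the Pax7-nGFP transgene adds to the Myod1 and Pax7 counts was not tested.

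Sarcomere genes were lower in the S-phase-like cells. All but 1 of the listed genes with enough UMIs, 24 of 25 among F/R/C+CP cells and 22 of 23 among F/R/C cells, were 2-fold lower in the S-phase-like cells, a size that 13.5% and 6.03% of all features reached. Their sum was 8888.6 CPM in S-phase-like against 40960.2 CPM in low-score F/R/C+CP cells and 1281.1 against 11791.7 CPM in such F/R/C cells. Acta1, skeletal actin, had 801 CPM in S-phase-like against 4567.8 CPM in low-score F/R/C+CP cells and 103 against 1368.8 CPM in such F/R/C cells. Myh3, embryonic myosin, had 230 CPM in S-phase-like against 1200.1 CPM in low-score F/R/C+CP cells and 15.4 against 249 CPM in such F/R/C cells. Per cell, sarcomere UMIs were summed over Acta1, Tnnc2, Tnnt3, Mylpf, Myh1, Myh3 and Ckm, not over the whole list. The low-score cells included 399 F/R/C+CP cells (16.0%) and 70 F/R/C cells (7.83%) with 200 or more such UMIs per 10000. None of the S-phase-like cells of either library reached that level. The part of such low-score cells in the other differences was measured by leaving them out. With these cells left out and the groups chosen anew, the sarcomere sum differed by -0.48 and -1.57 in place of -2.20 and -3.20, and 1 and 16 genes were 2-fold lower. The replication genes outside the rule then differed by 1.38 (F/R/C+CP) and 1.37 (F/R/C).

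The differences in commitment genes moved with the same low-score cells. Of 18 such genes, 11 and 10 were 2-fold lower in the S-phase-like cells, among them Mef2c (173 CPM in S-phase-like against 844 CPM in low-score F/R/C+CP cells and 39.3 against 404 CPM in such F/R/C cells), which switches on muscle structure genes, and the fusion gene Mymk (27.6 CPM in S-phase-like against 170 CPM in low-score F/R/C+CP cells and 5.13 against 60.3 CPM in such F/R/C cells). Of all features, 13.5% (F/R/C+CP) and 6.03% (F/R/C) were 2-fold lower. Without the cells of 200 or more sarcomere UMIs, 0 and 6 commitment genes reached that size. The share of all features at that choice of cells is not given here. Satellite cell genes showed no common direction. Of 23 with enough UMIs among F/R/C+CP cells 4 were 2-fold higher and 2 lower, and of 21 among F/R/C cells none was. Of all features, 5.98% (F/R/C+CP) and 4.86% (F/R/C) were 2-fold higher, beside the shares lower given above. Without the cells of 200 or more sarcomere UMIs, 0 satellite cell genes were 2-fold higher among F/R/C+CP cells. Pax7 then differed by 0.03 (F/R/C+CP) and -0.09 (F/R/C). Msc and Lgr5 were higher in both, with log2 differences of 1.12 and 1.26 among F/R/C+CP cells and of 0.84 and 0.85 among F/R/C cells. Pax3, a relative of Pax7, had 0.747 CPM in S-phase-like against 17.3 CPM in low-score F/R/C+CP cells and 29.1 against 35.2 CPM in such F/R/C cells. Melanocyte markers moved with it, at 6.72 against 120 CPM in the same F/R/C+CP cells, and Pax3 differed there by -2.96 in place of -4.54 without cells that hold 50 or more UMIs per 10000 of connective, smooth muscle or pericyte and melanocyte markers, and by -2.38 after thinning.

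CDK inhibitors, which hold cells out of the cycle, did not move as a group. Cdkn1c (p57) was higher in the S-phase-like cells, with 2243.8 against 1681.7 CPM among F/R/C+CP cells (log2 difference 0.42, 0.40 to 0.43) and 2532.5 against 1575.3 CPM among F/R/C cells (0.68, 0.63 to 0.74). Per cell, the median was 17.4 Cdkn1c UMIs per 10000 in S-phase-like against 11.5 in low-score F/R/C+CP cells, and 23.1 against 5.84 in such F/R/C cells. Thinned to 2000 UMIs, 89.1% of S-phase-like against 78.0% of low-score F/R/C+CP cells held a Cdkn1c UMI, and 72.0% against 58.0% of such F/R/C cells, with 76.2% and 70.3% in the sarcomere-rich cells of F/R/C+CP and F/R/C. Unthinned, the shares were 100% of S-phase-like against 99.6% of low-score F/R/C+CP cells, and 80.3% against 67.3% of such F/R/C cells. Myog-high cells had more, 5888.1 CPM (F/R/C+CP) and 4567.2 CPM (F/R/C) of Cdkn1c. The difference had the same sign in both libraries without cells of 200 or more sarcomere UMIs, at 0.25 and 0.61, and with the score built from Pcna, Rrm2 and Tyms alone, at 0.20 and 0.24. Cdkn1a (p21) was lower, with 233 CPM in S-phase-like against 709 CPM in low-score F/R/C+CP cells (-1.60) and 296 against 530 CPM in such F/R/C cells (-0.84), and differed by -0.54 (F/R/C+CP) and -0.38 (F/R/C) without the cells of 200 or more sarcomere UMIs. Cdkn2b was 2-fold lower and Cdkn2c 2-fold higher in both libraries. Cdkn1b differed by 0.04 (-0.08 to 0.15) and -0.18 (-0.54 to 0.16).

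Of the D cyclins, which open the way through G1, Ccnd1 had 173 CPM in S-phase-like against 152 CPM in low-score F/R/C+CP cells and 412 against 281 CPM in such F/R/C cells. Ccnd2 had 38.8 against 195 CPM among F/R/C+CP cells (log2 difference -2.33, -2.45 to -2.21) and 213 against 169 CPM among F/R/C cells (0.34, 0.16 to 0.52). Ccnd1 among F/R/C+CP cells turned from a log2 difference of 0.19 to -0.22 without cells of 200 or more sarcomere UMIs per 10000. The F/R/C+CP value of Ccnd2 was -0.91 when cells with markers of other cell types were left out, and its F/R/C value was -0.0047 with the score from Pcna, Rrm2 and Tyms.

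Connective and smooth muscle or pericyte markers were lower as sums in the S-phase-like cells of both libraries, and melanocyte and Schwann or neural markers in those of clone F/R/C+CP, beside the muscle differences given above. No S-phase-like cell reached 50 UMIs per 10000 of connective, smooth muscle or pericyte and melanocyte markers together, while 147 low-score F/R/C+CP cells and 17 low-score F/R/C cells did. Connective markers summed to 81.9 CPM in S-phase-like against 262 CPM in low-score F/R/C+CP cells and 241 against 446 CPM in such F/R/C cells, with the defining collagen gene Col1a1 at 0.311 CPM in S-phase-like against 4.43 CPM in low-score F/R/C+CP cells and 1.71 against 18.3 CPM in such F/R/C cells. Smooth muscle or pericyte markers summed to 387 CPM in S-phase-like against 1033.2 CPM in low-score F/R/C+CP cells and 339 against 434 CPM in such F/R/C cells. Melanocyte markers summed to 6.72 against 120 CPM among F/R/C+CP cells. They summed to 4.56 against 8.11 CPM among F/R/C cells (log2 difference -0.83, -2.14 to 0.29), where Tyrp1 and Dct had no UMI in either cell group. Schwann or neural markers summed to 10.1 CPM in S-phase-like against 27.4 CPM in low-score F/R/C+CP cells and 37.1 against 47.8 CPM in such F/R/C cells, the second with an interval that spanned 0 (-0.37, -0.79 to 0.03). Adipocyte markers went the other way among F/R/C+CP cells, at 101 against 60.5 CPM, and had 66.1 against 71.8 CPM among F/R/C cells. Endothelial, immune, epithelial and erythroid markers summed to 5.13 CPM or less in the S-phase-like cells of either library. Without cells that hold 50 or more such UMIs per 10000, the smooth muscle or pericyte sum differed by -0.12 in place of -1.42 among F/R/C+CP cells, and the replication genes outside the rule differed by 1.66.

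Outside the fixed lists, 10 genes higher and 10 lower in both libraries were taken by size. The higher ones included Atad2, Brip1, Diaph3, Fam111a, Incenp, Ncapd3, Ncapg2, Polq and Zfp367. Fam111a, a protease that protects forks, had 108 CPM in S-phase-like against 8.55 CPM in low-score F/R/C+CP cells and 107 against 17.5 CPM in such F/R/C cells. Brip1, a helicase partner of Brca1, had 87.5 CPM in S-phase-like against 11.9 CPM in low-score F/R/C+CP cells and 105 against 14.6 CPM in such F/R/C cells. Atad2, a chromatin factor, had 249 CPM in S-phase-like against 28.4 CPM in low-score F/R/C+CP cells and 245 against 39.9 CPM in such F/R/C cells. Polq, a repair polymerase, had 38.5 CPM in S-phase-like against 4.57 CPM in low-score F/R/C+CP cells and 37.1 against 3.74 CPM in such F/R/C cells. Several of the 10 genes are known from replication, repair or chromosome structure. The lower ones were Casq1, Cav3, Cox6a2, Ebf1, Mustn1, Mybpc1, Myoz2, Scg2, Smpx and Trdn. Their size depended on the choice of cells. Over the alternatives run, Casq1, Cav3, Cox6a2, Myoz2 and Smpx shrank to as little as -0.59, -0.73, -0.68, -0.64 and -0.69 among F/R/C+CP cells. The other lower genes stayed 2-fold lower there. Among F/R/C cells all but Scg2 (-0.99) stayed 2-fold lower. Casq1 and Trdn belong to the calcium store of muscle fibers, while Scg2, a secretory granule protein, had 1.87 CPM in S-phase-like against 54.4 CPM in low-score F/R/C+CP cells and 11.4 against 96.7 CPM in such F/R/C cells. Over all 9141 features with enough UMIs in both libraries, 342 were 2-fold higher and 363 2-fold lower in both.

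Between the clones, the S-phase-like cells had nearly the same replication level. The replication genes outside the rule summed to 4346.8 CPM in the F/R/C+CP cells and 4383.7 CPM in the F/R/C cells, a log2 difference of -0.01 (-0.05 to 0.02), where all 10742 features had a median of -0.10. Scaled by the median ratio over genes, which raises every value of this comparison, the difference was 0.10. None of the 57 genes was 2-fold higher in the F/R/C+CP cells and 1 was 2-fold lower, against 9.41% and 10.1% of all features. That gene was Pold4 (-1.52). Lig1 (0.84), Rfc3 (0.61) and Rfc4 (0.59) had the highest values and Rpa1 (-0.86) and Chtf18 (-0.76) the lowest after Pold4. The rule genes had lower levels in F/R/C+CP cells, with a sum of 1229.9 CPM against 1668.8 CPM in F/R/C cells (-0.44, -0.50 to -0.38), at a limit of the score that was also lower. In low-score cells the replication genes outside the rule differed by -0.23.

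Histone genes set the clones apart in the S-phase-like cells. Of 43 with enough UMIs, 40 were 2-fold higher in the F/R/C+CP cells, with a median of 2.30, and the sum differed by 1.55 (1.49 to 1.62). In low-score cells 21 of 37 were 2-fold higher, against 10.4% of all 13114 features, and the sum differed by 0.96. Ccne2 was also higher in the F/R/C+CP cells, by 1.81 in S-phase-like and by 1.66 in low-score cells, while Ccne1 differed by 0.04 in S-phase-like and by 0.34 in low-score cells. Sarcomere genes differed by 2.795 (2.734 to 2.855) as a sum, although the S-phase-like cells of both libraries lacked cells rich in them. All 24 with enough UMIs were 2-fold higher in the F/R/C+CP cells, with a median of 3.06, under the same limit of UMIs. In low-score cells the median was 1.74. Myog-high cells, the main source of these transcripts, had 63997.4 CPM of the sarcomere genes among F/R/C+CP cells and 29719.1 CPM among F/R/C cells, and the part of free RNA from such cells was not tested. Immediate early genes, which answer to dissociation and to growth signals, were 2-fold lower in the F/R/C+CP cells for 13 of 18. Satellite cell genes were 2-fold lower for 10 of 22, among them Myf5 (-4.99) and Pax3 (-5.28). Of all features in this comparison of S-phase-like cells, 10.1% were 2-fold lower. JAK/STAT genes, the pathway that CP690550 blocks, were 2-fold lower for 8 of 17 in S-phase-like cells, beside the same 10.1% of all features. Stat3 had 23.8 CPM in the F/R/C+CP cells and 86.1 CPM in the F/R/C cells. In low-score cells 6 of 20 JAK/STAT genes were 2-fold lower, against 10.5% of all features.

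**Figure D5:**
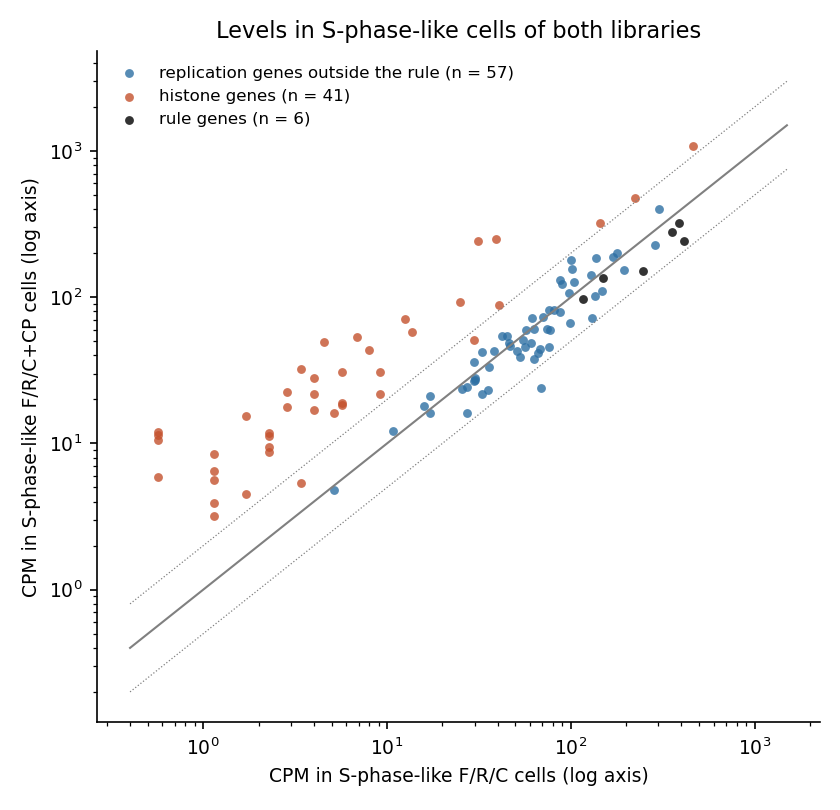
Level of each gene in the S-phase-like F/R/C+CP cells (CPM, y axis, log scale) against its level in the S-phase-like F/R/C cells (CPM, x axis, log scale) for replication genes outside the rule, histone genes and rule genes; the solid line marks equal levels and the dotted lines a 2-fold difference, and genes without a UMI in the F/R/C cells are not drawn. The 57 replication genes lie along the line of equal levels with Pold4 below it, and the 41 histone genes drawn lie above it. Genes drawn had at least 50 UMIs over both libraries together, which genes could reach mainly through the deeper F/R/C+CP library.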

How the data were processed

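The 10x Genomics matrices of both clones were analysed. The deposited values were raw UMI counts per gene and barcode, in whole numbers. According to the submitters' processing notes and the study's methods, the authors used Cell Ranger 7.0.0 with GRCm39, Seurat 4.2.1 and STARsolo. The methods describe an ambient RNA correction (SoupX) for F/R/C+CP-iMPCs, and whether the deposited counts hold it could not be settled. The F/R/C+CP matrix holds 12000 barcodes, all of 12097 UMIs or more, a limit that the F/R/C matrix does not have.

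Barcodes with 250 to 4000 (F/R/C) or 250 to 7000 (F/R/C+CP) genes, at most 15% mitochondrial and at most 40% ribosomal protein UMIs were kept, as in the study's methods. Counts were summed over the cells of each group and given as CPM. Log2 differences were taken on genes with at least 50 UMIs in the 2 groups together, with exact 95% binomial intervals for the ratio of 2 counts, which do not cover spread between clones or captures, and a gene at 0 was set to a floor of 3 counts per group. With 1 library per group no test was made, and 2-fold differences were counted. Where shares of cells were compared between groups, cells were thinned to 2000 UMIs, with exact binomial intervals, and unthinned shares are named as such. Rule-gene shares are unthinned. Doublets were scored with Scrublet (scanpy 1.11.5), which called 2.76% (F/R/C+CP) and 0.101% (F/R/C) of kept cells, and were not removed. Python 3.11.15, numpy 2.4.6, scipy 1.17.1, pandas 2.3.3 and matplotlib 3.10.9 were used, and the scripts were tested on simulated data. The text names fixed genes, the rule genes, the largest differences of each list, the extremes between clones and, outside the lists, the 10 largest differences each way in both libraries. Other list members are named by role and were chosen after their values were seen. The members and lists were chosen with earlier results of these data known. Promoters came from RefSeq entries of GRCm38.p6, another build than that of the counts. A few genes that the rule would name are not reported here.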

Additional observations from a re-analysis of the deposited data

Results flagged for a closer look

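For 2 of 9141 features with enough UMIs in both libraries, the S-phase-like cells differed from the low-score cells 2-fold or more in opposite directions in the clones. Zfp385b, a zinc finger gene, had 5.85 CPM in the S-phase-like cells against 14.2 CPM in the low-score cells of clone F/R/C+CP (log2 difference -1.28) and 22.8 against 11.0 CPM among F/R/C cells (1.05). Mecom, a transcription factor gene, had 1.31 against 4.90 CPM among F/R/C+CP cells (-1.91) and 23.4 against 9.15 CPM among F/R/C cells (1.35), from 21 and 41 UMIs in the S-phase-like cells. The difference between the clones was not tested, since each is 1 library.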

How the results depend on the processing

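The S-phase-like over low-score difference of the summed replication genes outside the rule stayed above 0 in both libraries under every alternative run. Against 1.69 (F/R/C+CP) and 1.47 (F/R/C), it was 1.73 and 1.53 with the top 10% as members, 1.62 and 1.40 with the top 25%, 1.51 and 1.23 with a score from Mcm3, Mcm5 and Mcm6, 1.64 and 1.38 from Pcna, Rrm2 and Tyms, 1.52 and 1.30 with cells chosen within 10 bands of UMI count, 0.80 and 0.89 after thinning to 2000 UMIs, 1.38 and 1.37 without cells of 200 or more sarcomere UMIs per 10000, 1.59 and 1.40 when scaled by the median ratio, and 2.21 and 1.95 against the bottom 25%. It was 1.72 without top doublet scores and 1.66 without cells bearing other markers (F/R/C+CP), and 1.41 with at least 4000 UMIs (F/R/C). Leaving out the same cells within 10 bands of UMI count gave 1.22 and 1.19, and this alternative and the one on other markers were chosen after seeing the data. Genes 2-fold higher, 49 and 45, were 20 and 20 after thinning, where ties made 1413 and 295 cells members. Between the clones in S-phase-like cells, -0.01 moved to 0.024 with the Mcm score, -0.12 after thinning and 0.10 when scaled. Sums of few UMIs changed sign after thinning, for epithelial (0.34) and immune markers (0.57) in F/R/C+CP cells and for immune markers between the clones (0.55). Rgs5 between the clones became 0.51 within 10 bands of UMI count, and Tagln in F/R/C+CP cells 0.17 without cells bearing other markers. The causes were not tested. A shared range of UMIs could not be used, since 27 eligible F/R/C cells, 4 of them members, lay in 12100 to 20390 UMIs. No paired analysis was possible because each group is 1 library. Of the S-phase-like F/R/C cells, 26 held under 2000 UMIs.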
